A study of Mus musculus with 8 samples.

Results

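The 7 genes Pou5f1, Sox2, Nanog, Klf4, Esrrb, Lin28a and Dppa3, which are known from pluripotent stem cells, were examined in cultured germline stem cells, the in vitro form of spermatogonial stem cells. Each gene was represented by a fixed interval of 25 to 185 kb in the coordinates of the peak lists, 380 kb in all, and its members were all listed peaks that overlapped the interval. They numbered 118 of 233295 peaks, 82 of them for H3K4me3 and 36 for H3K27me3. The 60M cells had been cultured for approximately 60 months and the 5M cells for about 5 months. Both were wild-type cells from testis, derived from Green mice, C57BL/6 animals with the EGFP transgene Tg14(act-EGFP)OsbY01, of DBA/2 background, and both were grown with FGF2, GDNF and fetal bovine serum. Chromatin immunoprecipitation sequencing was done for each mark in 2 libraries per age, 8 in all. The labels do not say whether the 2 libraries of an age came from separate cultures or lines, and their spread can be technical. With 2 libraries against 2 an exact two-sided permutation test cannot give a p below 0.33, so the values are described without a test.

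In embryonic stem cells Pou5f1 (Oct4), Sox2 and Nanog form the core transcription factor circuit, Klf4 and Esrrb reinforce it, and Lin28a and Dppa3 are among the genes active in early embryonic or germ cells. Male germline stem cells share part of this set, such as Pou5f1 and Lin28a, while remaining committed to spermatogenesis. H3K4me3 marks active or poised promoters, and H3K27me3, the product of Polycomb repressive complex 2, marks silenced genes. CpG-rich promoters are the usual sites of both marks.

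RefSeq promoter windows (GRCm38.p6), which run from 250 bases before to 50 bases after the transcript start, were found for 6 of the 7 genes, 9 windows in all. Those of 4 genes are shown 5' to 3' with CpG dinucleotides in capitals, because these 4 span the range of CpG content in the set. Klf4 had the most CpGs and Nanog the fewest.
Klf4 (chr4:55532426-55532725, minus strand): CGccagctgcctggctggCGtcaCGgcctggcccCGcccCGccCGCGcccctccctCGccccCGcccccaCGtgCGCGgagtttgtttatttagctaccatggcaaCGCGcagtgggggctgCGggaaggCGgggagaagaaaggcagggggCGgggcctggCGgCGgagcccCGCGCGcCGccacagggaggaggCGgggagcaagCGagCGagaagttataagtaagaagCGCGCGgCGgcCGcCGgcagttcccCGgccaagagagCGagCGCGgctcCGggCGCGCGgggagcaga
Sox2 (chr3:34649745-34650044, plus strand): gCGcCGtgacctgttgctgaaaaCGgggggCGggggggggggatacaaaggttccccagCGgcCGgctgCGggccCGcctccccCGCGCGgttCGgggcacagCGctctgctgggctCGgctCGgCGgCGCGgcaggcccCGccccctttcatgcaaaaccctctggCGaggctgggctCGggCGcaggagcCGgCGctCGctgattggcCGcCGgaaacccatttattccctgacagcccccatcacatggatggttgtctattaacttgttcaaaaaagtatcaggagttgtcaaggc
Pou5f1 (chr17:35505782-35506081, plus strand): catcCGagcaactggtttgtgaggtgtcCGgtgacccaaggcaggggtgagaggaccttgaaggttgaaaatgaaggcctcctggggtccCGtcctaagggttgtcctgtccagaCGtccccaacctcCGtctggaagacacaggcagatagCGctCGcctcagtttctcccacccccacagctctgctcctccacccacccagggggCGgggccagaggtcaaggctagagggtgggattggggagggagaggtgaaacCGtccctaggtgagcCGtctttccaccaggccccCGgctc
Nanog (chr6:122707239-122707538, plus strand): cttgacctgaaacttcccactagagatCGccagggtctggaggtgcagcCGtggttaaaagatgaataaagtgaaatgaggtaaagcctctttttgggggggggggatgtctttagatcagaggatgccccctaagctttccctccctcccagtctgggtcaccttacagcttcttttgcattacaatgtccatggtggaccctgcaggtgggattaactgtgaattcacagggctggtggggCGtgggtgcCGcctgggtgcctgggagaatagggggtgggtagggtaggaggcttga

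Klf4 held 40 CpGs in its 300 bases and Sox2 held 27, and 3.91% and 15.5% of all 32851 promoter windows had at least as many. The first window of Pou5f1, shown above, held 11 CpGs and its second 6, Lin28a held 10, each Esrrb window held 7 and each Nanog window 4, beside a median of 7 over all windows. The Nanog windows contained the octamer TTTGCAT followed after 1 base by the SOX core ACAATG, the motif bound jointly by Oct4 and Sox2. This composite, here TTTGCATTACAATG, was searched on both strands with any base at the spacer and was found in 2 of the 32851 windows (0.00609%), and both belonged to Nanog, whose 2 windows overlap and share the site at bases 176 to 189 of the sequence shown. The octamer core alone, which the composite includes, occurred in 4.63% of all windows and also in that of Sox2. The SOX core alone, also part of the composite, occurred in 12.6% of all windows and in those of Nanog, Lin28a, the second of Pou5f1 and the first of Esrrb. The GC box GGGCGG, a site of Sp and Klf factors, occurred 4 times in Klf4, 2 times in Sox2 and 1 time each in Lin28a and the first Pou5f1 window, and in 35.7% of all windows. AAGGTCA, the core recognised by Esrrb, was in none of the 9 windows and in 4.72% of all. These matches describe letters and do not show binding. The positions of the lists follow another build, mm9, so the windows were not placed on the peaks.

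**Figure D1:**
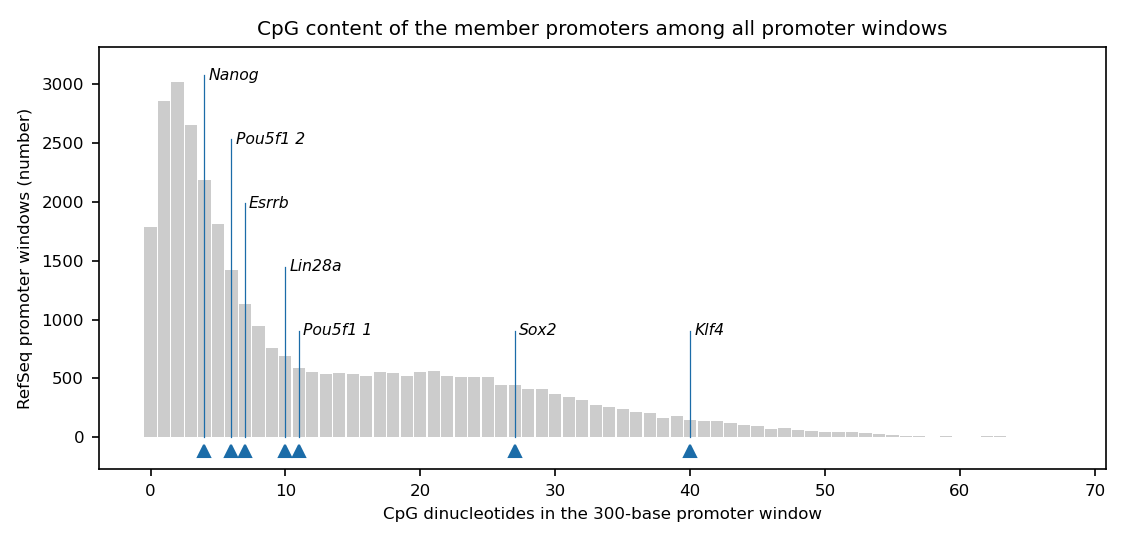
Number of RefSeq promoter windows (vertical axis) by their count of CpG dinucleotides (horizontal axis), with the member windows as triangles and named lines. Numbers after Pou5f1 are its first (1) and second (2) window; the 2 Nanog windows, and the 2 Esrrb windows, coincide. Klf4 (40) and Sox2 (27) lie in the upper tail and Nanog (4) near the mode.

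The lists held 41637 to 47415 H3K4me3 peaks and 12002 to 14940 H3K27me3 peaks per library. They give no read totals, so sequencing depth is unknown. H3K4me3 peaks covered 3.62% to 3.83% of the genome and H3K27me3 peaks 0.964% to 1.32%. A peak that is not listed was not called there, and the mark may still be present. Positions of germline marker genes in this build were not analysed here, so the cell type was not checked against markers. H3K27me3 60M library 2 stood apart in the Sox2 interval, with 6 kb under a peak where the other 3 libraries of the mark had 15 to 18 kb. The intervals can also hold starts of other genes. In GRCm38.p6 the nearest coding neighbours include Tcf19 for Pou5f1, Slc2a3 for Nanog, Gdf3 for Dppa3 and Dhdds for Lin28a, and Sox2 lies within the noncoding gene Sox2ot, so a peak was assigned to an interval and not to a gene's own promoter.

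All 7 intervals carried H3K4me3 in every library, and H3K27me3 peaks lay in 3 of them, those of Sox2, Esrrb and Nanog. No H3K27me3 peak was listed in any library in the Pou5f1, Klf4, Lin28a and Dppa3 intervals. Of 35 kb tiles of the genome, 34105 held an H3K4me3 peak in any library and 15213 an H3K27me3 peak. Their share of all tiles was not computed, so presence or absence of a mark is not read as particular to these genes. For each mark, peaks that overlapped between its 4 libraries were joined into 26 H3K4me3 regions and 15 H3K27me3 regions. Of the H3K4me3 regions, 15 (57.7%) were listed in all 4 libraries, against 64.5% of all 54585 H3K4me3 regions of the genome. None was listed at 60M alone, meaning in both libraries of that age and in none of the other, and 4.46% of all regions were. At 5M alone 3 regions were listed (11.5%), a share near the 10.1% of all regions, and 1 was left when peaks within 1 kb were merged or when only peaks at or above the 25th percentile of their list were kept. Genome shares under those settings were not computed. A single library listed 4 (15.4%, against 11.7%). Of the 15 H3K27me3 regions, 4 were listed in all 4 libraries (26.7%, against 18.6% of all 26634 regions) and 8 in 1 library (53.3%, against 54.8%). None was listed at 60M alone, against 4.39% of all.

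**Figure D2:**
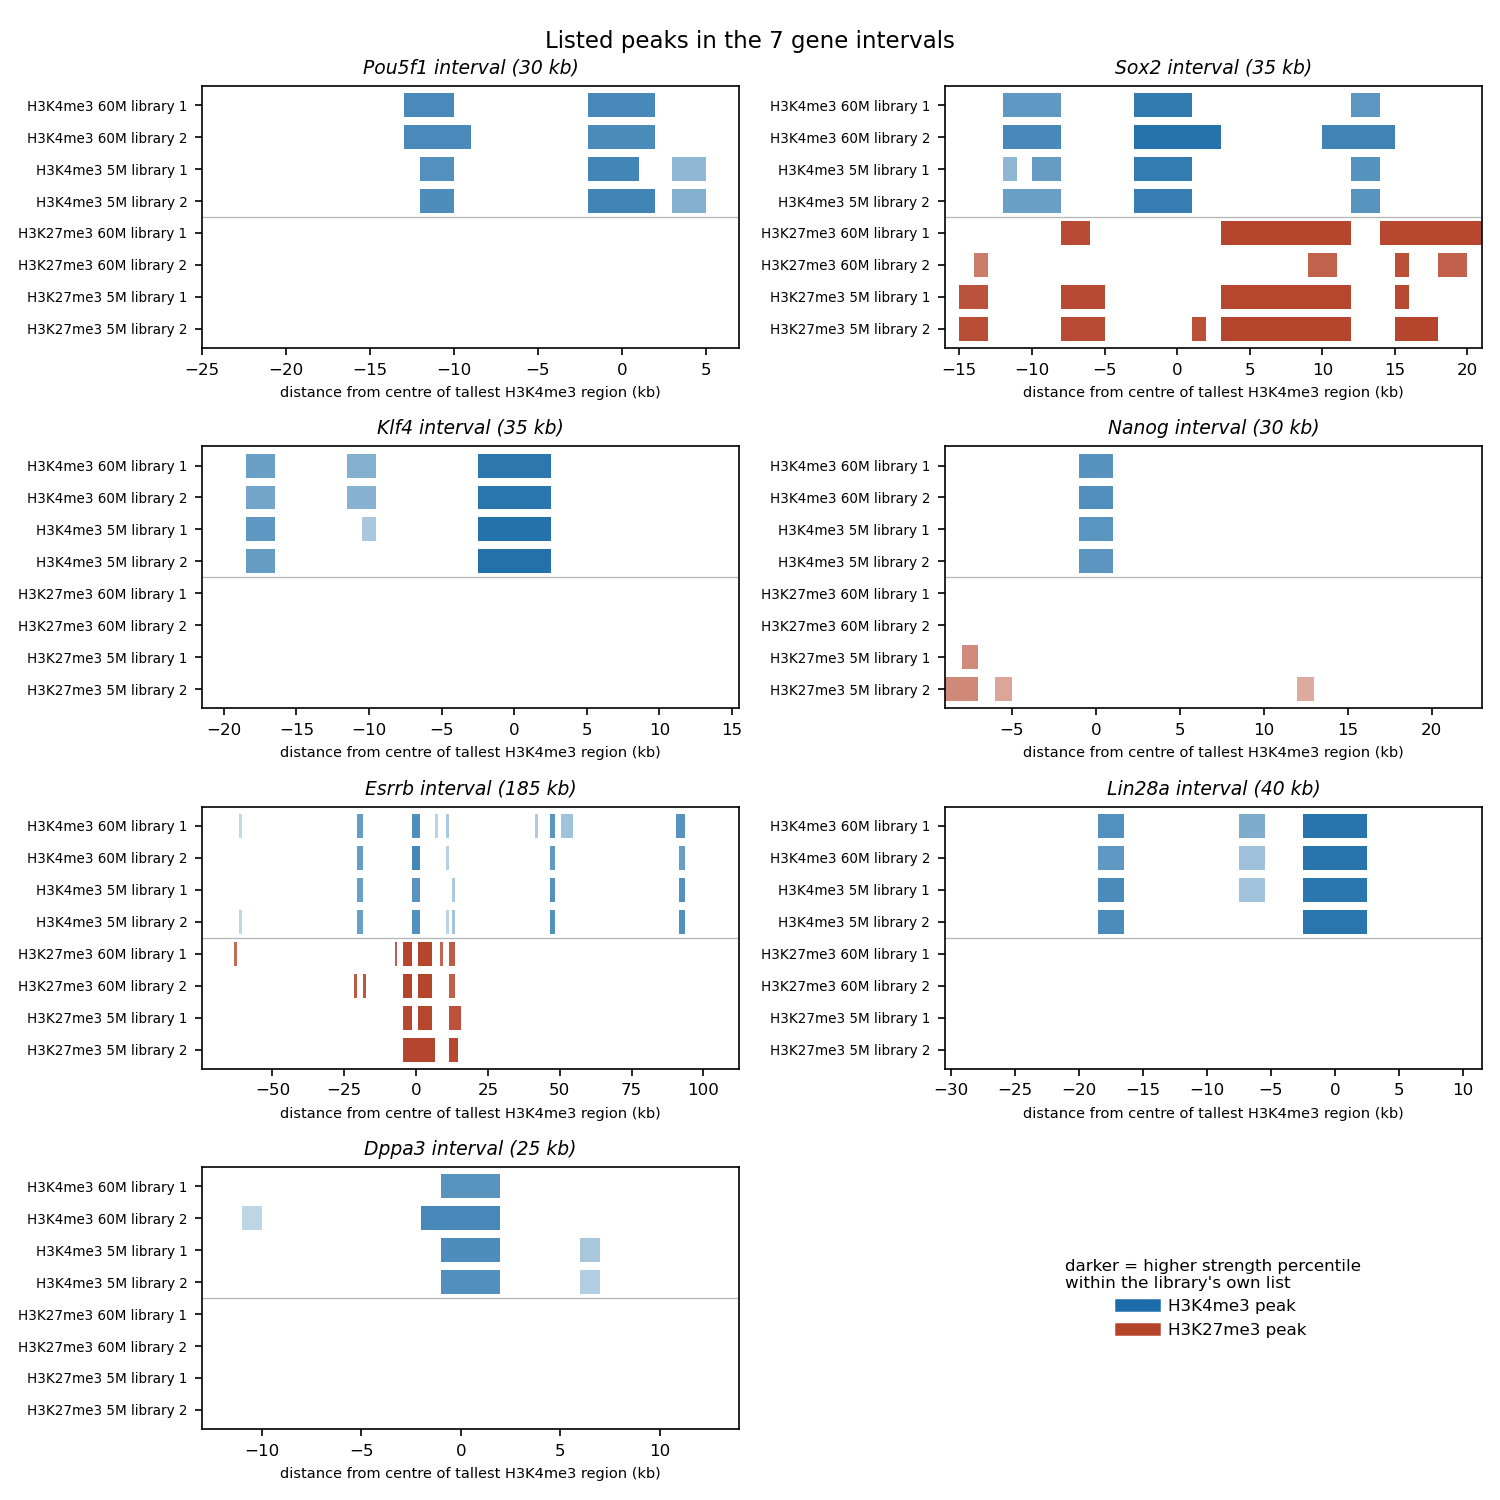
Listed peaks in the 7 gene intervals, with distance from the centre of the tallest H3K4me3 region in kb on the horizontal axis and the 8 libraries in rows, 60M above 5M for each mark. Blue bars are H3K4me3 peaks and red bars H3K27me3 peaks, darker where the peak ranks higher in its own list. Red bars appear in the Sox2, Esrrb and Nanog panels only, and in the Nanog panel only in 5M libraries.

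Pou5f1, the POU-domain transcription factor of the core circuit, had H3K4me3 and no H3K27me3. Its interval on chromosome 17 (35630000 to 35660000) held 3 H3K4me3 regions. The first (35641000 to 35644999) measured 3 and 4 kb at 60M, against 2 kb in each 5M library, so both 60M peaks were wider. It was the only one of the 15 shared regions with such a width difference, and 7.43% of the 35229 shared regions of the genome had one. The opposite difference was found in 0 of the 15 and in 2.49% of all. The maximum of this peak lay in the bin centred on 35641500 in both 60M libraries and on 35642500 in both 5M libraries. The strength of a peak was expressed as the percentile of its maximum signal, the authors' value per peak, within its own list. The first region reached percentiles 72.3 and 72.4 at 60M and 67.3 and 70.9 at 5M. The second region (35652000 to 35655999) ranked lower at 60M, at 73.4 and 72.0, than at 5M, at 77.0 and 78.0. The third (35657000 to 35658999) was listed at 5M alone, at percentiles 31.5 and 38.5. The covered length of the interval did not separate the ages, with 7 and 8 kb in the libraries of each. With 5 kb trimmed from both ends of the interval, which removes the third region and clips the second, it did, with 6 and 7 kb at 60M and 5 kb in each 5M library.

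Sox2, the HMG-box partner of Oct4, had both marks in one interval, arranged side by side. On chromosome 3 (34535000 to 34570000) the tallest H3K4me3 region (34547000 to 34552999) reached percentiles 86.2 and 94.2 at 60M and 85.9 and 84.9 at 5M. It was 4 kb wide in 60M library 1 and both 5M libraries and 6 kb wide in 60M library 2. H3K4me3 covered 10 and 15 kb at 60M, where the 5M libraries had 9 and 10 kb, and the larger 60M value came from library 2 alone. The region at the low end (34538000 to 34541999) ranked at 60.3 and 74.1 at 60M and at 55.9 and 53.6 at 5M. The third (34560000 to 34564999) ranked at 62.0 and 78.8 at 60M and at 65.4 and 63.8 at 5M, so the ages overlapped.

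The widest H3K27me3 domain of the Sox2 interval ranked near the top of the lists in 3 of the 4 libraries. This domain, at 34553000 to 34561999, was 9 kb wide in 60M library 1 and in both 5M libraries, at percentiles 98.8, 98.2 and 99.1. In 60M library 2 only 2 kb of it were listed, at percentile 77.9. The covered length was 17 and 6 kb at 60M, where the 5M libraries had 15 and 18 kb. The means, 11.5 ± 7.78 kb and 16.5 ± 2.12 kb (SD, n = 2 each), differed by less than the SD of the 60M libraries. A flanking region (34542000 to 34544999) was listed in 60M library 1 and both 5M libraries and not in 60M library 2. Another (34564000 to 34570999) was listed in all 4, over 7 and 3 kb at 60M, where the 5M libraries had 1 and 3 kb. It ranked at 97.1 and 90.9 at 60M and at 95.8 and 98.7 at 5M. The region at 34535000 to 34536999 was missing from 60M library 1 instead. It ranked at 59.1 in 60M library 2 and at 89.7 and 92.4 at 5M. Over 1 kb bins listed in both libraries, the interval held 10 H3K4me3 bins and 5 H3K27me3 bins at 60M with none shared, and 9 and 15 bins at 5M, again with none shared. Genome-wide, 15.5% of H3K27me3 bins listed in both libraries at 60M, and 19.3% at 5M, also carried H3K4me3 in both. Over bins listed in either library, a count without a genome background here, the interval had 3 shared at 60M and 0 at 5M.

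Nanog, the homeodomain factor of the core circuit, had the shortest H3K4me3 cover of the 7 intervals. The interval on chromosome 6 (122645000 to 122675000) held 1 H3K4me3 region (122652000 to 122653999), 2 kb wide in all 4 libraries. It ranked at percentiles 64.5 and 68.1 at 60M and 63.6 and 62.2 at 5M, so the 60M values lay above the 5M values. Divided by the median signal of the list the ages overlapped, at 1.49 and 1.55 at 60M and 1.51 and 1.43 at 5M. H3K27me3 covered 0 kb in each 60M library, against 1 and 3 kb in the 5M libraries. Of the 3 intervals with an H3K27me3 peak, Nanog was the only 1 with less length covered at 60M in both libraries, and none had more. Among 35 kb tiles with an H3K27me3 peak, 15.3% had less and 10.4% more. The Esrrb interval, at 185 kb, is longer than a tile. A region at 122644000 to 122645999, at the edge of the interval, was listed at 5M alone, the only such H3K27me3 region among 15, where 6.02% of all H3K27me3 regions were. The 5M peaks there were of middle rank, at percentiles 48.7 and 50.3. Their -log10 p against the control was 4.74 and 4.91. The other 2 H3K27me3 regions of the interval were listed in 5M library 2 alone. When the interval was trimmed by 5 kb at both ends, the region at the edge was lost and no H3K27me3 region of either age alone was left. The covered length was then 0 kb in each 60M library and 0 and 1 kb in the 5M libraries, so the ages overlapped.

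Klf4, a zinc-finger factor used in reprogramming, carried one of the tallest H3K4me3 peaks of the set. In the interval on chromosome 4 (55525000 to 55560000) a region of 5 kb (55543000 to 55547999) ranked at 90.1 and 91.1 at 60M and at 94.5 and 95.1 at 5M. The region at 55527000 to 55528999 also ranked lower at 60M, at 53.2 and 47.7, than at 5M, at 60.8 and 56.9. Between them a weaker region (55534000 to 55535999) ranked higher at 60M. It was 2 kb wide in both 60M libraries, at percentiles 38.2 and 36.0. In 5M library 1 it was 1 kb wide at percentile 16.7, and in 5M library 2 it was not listed. Klf4 was the only interval in which H3K4me3 covered more in both 60M libraries (9 kb each) than in both 5M libraries (8 and 7 kb). With 5 kb trimmed from both ends of each interval, Pou5f1 did so too. Of 35 kb tiles of the genome with an H3K4me3 peak, 11.4% had such a difference, and 15% the reverse, which no interval had.

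Esrrb, an orphan nuclear receptor, also had both marks in its interval. Within chromosome 12 (87690000 to 87875000), 4 of 10 H3K4me3 regions were listed in all 4 libraries. The one with the highest mean rank (87762000 to 87764999) was 3 kb wide throughout and ranked at 68.9 and 76.1 at 60M and at 63.9 and 67.6 at 5M. It lay mostly in a gap of an H3K27me3 domain (87759000 to 87769999) at the top of its lists, at percentiles 98.2 and 99.3 at 60M and 98.1 and 98.5 at 5M. The domain covered 8 kb in each 60M library, 8 kb in 5M library 1 and 11 kb in 5M library 2, where the gap over the H3K4me3 peak was also listed. A second H3K27me3 region (87775000 to 87778999) was narrower and weaker at 60M, with 2 kb in both libraries at percentiles 83.4 and 80.1, than at 5M, with 4 and 3 kb at 89.1 and 95.9. It was the only 1 of the 4 shared H3K27me3 regions whose ages did not overlap in width, and 16.7% of the 4962 shared regions of the genome were narrower in this way, while 8.28% were wider, as was none of the 4. Its rank was also the only one lower in both 60M libraries (21.7% of all shared H3K27me3 regions, and 23.9% by signal over the list median). None of the 4 was higher, against 28.4% of all, or 23.4% on the other scale. A 1 kb H3K4me3 peak inside it (87776000 to 87776999) was listed at 5M alone, at percentiles 15.3 and 20.1. A peak close by (87774000 to 87774999) was listed in both 60M libraries, at 14.6 and 8.55, and in 5M library 2 at 5.17.

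The other 3 shared Esrrb regions overlapped no H3K27me3 peak and differed in both directions. The region at 87743000 to 87744999 ranked at 55.3 and 55.5 at 60M against 52.9 and 53.3 at 5M. The regions at 87810000 to 87811999 and 87854000 to 87856999 ranked lower at 60M. That at 87810000 stood at 63.4 and 58.8 at 60M and 65.9 and 67.8 at 5M, and that at 87854000 at 64.7 and 55.3 at 60M and 66.3 and 67.6 at 5M. A 1 kb peak at 87702000 to 87702999 was near the bottom of the lists, at percentile 1.71 in 60M library 1 and 3.77 in 5M library 2, and was not listed in the other 2 libraries. The H3K4me3 cover was 18 and 10 kb at 60M, where the 5M libraries had 10 and 12 kb. In 60M library 1, 3 peaks were listed that no other library had, among them a 4 kb peak at percentile 21.6 (87814000 to 87817999).

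Lin28a, an RNA-binding protein that blocks maturation of let-7 microRNAs, was the other interval with an H3K4me3 peak above the 90th percentile in every library. On chromosome 4 (133545000 to 133585000) the 5 kb region at 133572000 to 133576999 ranked at 92.8 and 92.9 at 60M and at 90.9 and 92.1 at 5M. This order depended on the scale. Divided by the median signal of the list, the peak stood at 2.93 and 2.45 at 60M and at 3.39 and 3.33 at 5M, lower in both 60M libraries. The region at 133556000 to 133557999 ranked at 67.4 and 60.2 at 60M and at 71.8 and 71.4 at 5M. A weaker one (133567000 to 133568999) was listed in both 60M libraries and in 5M library 1, at 42.2 and 23.2 at 60M and 21.7 at 5M.

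Dppa3 (Stella), a maternal factor that protects DNA methylation in the zygote, had 1 H3K4me3 region in all 4 libraries and no H3K27me3. The region on chromosome 6 (122575000 to 122578999) ranked at 63.7 and 74.4 at 60M and at 70.6 and 68.0 at 5M, so the ages overlapped. A 1 kb peak (122583000 to 122583999) was listed at 5M alone, at percentiles 17.4 and 11.7. Another (122566000 to 122566999) was listed in 60M library 2 alone, at 4.56. The interval from 122565000 to 122590000 was covered by H3K4me3 over 3 and 5 kb at 60M, against 4 kb in each library at 5M.

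**Figure D3:**
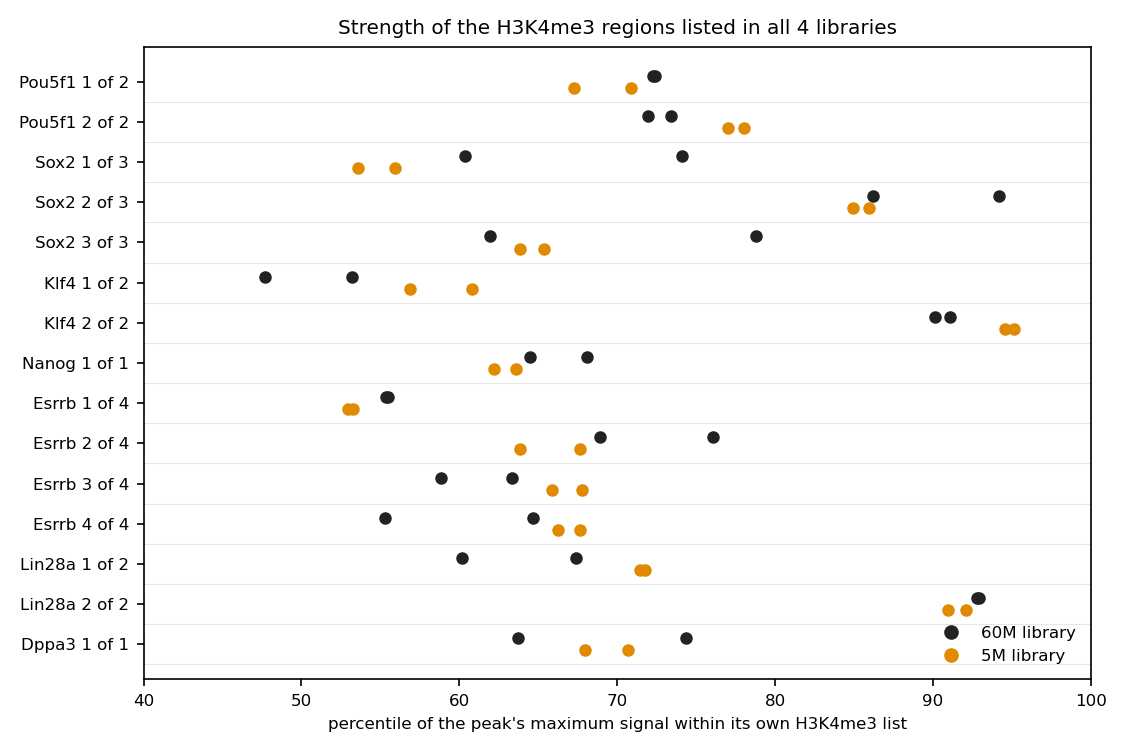
Strength percentile of the 15 H3K4me3 regions listed in all 4 libraries (horizontal axis, percentile of the maximum signal within the library's own list), numbered by position within each gene. Black points are 60M libraries and orange points 5M libraries. The main peaks of the Klf4, Lin28a and Sox2 intervals lie highest. With the full lists, the peaks of the Klf4 interval sit lower at 60M and that of the Nanog interval higher at 60M. Names give the interval, not the gene's own promoter.

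Of the 15 shared H3K4me3 regions, 7 ranked higher in both 60M libraries than in either 5M library (46.7%, against 21.4% of the 35229 shared regions of the genome) and 6 ranked lower (40%, against 44.5%). The 7 were the first Pou5f1 region, the first and second Sox2 regions, the Nanog region, the tallest Lin28a region and the Esrrb regions at 87743000 and 87762000. The lists differ in length, which bears on ranks. With all 4 cut to the length of the shortest, chosen after the data were seen, the same 7 were higher, against 37% of 33109 shared regions, and 4 were lower, against 27.4%. The Klf4 region at 55527000 and the Esrrb region at 87854000 then overlapped between the ages. The mean difference for Nanog went to 7.03 percentile points, against 3.41 with the full lists, for the Esrrb region at 87743000 to 6.87, against 2.3, and for the first Pou5f1 region to 6.27, against 3.25. The split changed with the scale as well. With signal divided by the list median, 3 regions were higher (the first Sox2 region and the same 2 Esrrb regions) and 8 lower, and 14.4% and 62.5% of the shared regions of the genome were. The mean difference turned from higher to lower at 60M for the first Pou5f1 region, the second Sox2 region and the tallest Lin28a region. The scaling of the deposited signal was not stated.

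**Figure D4:**
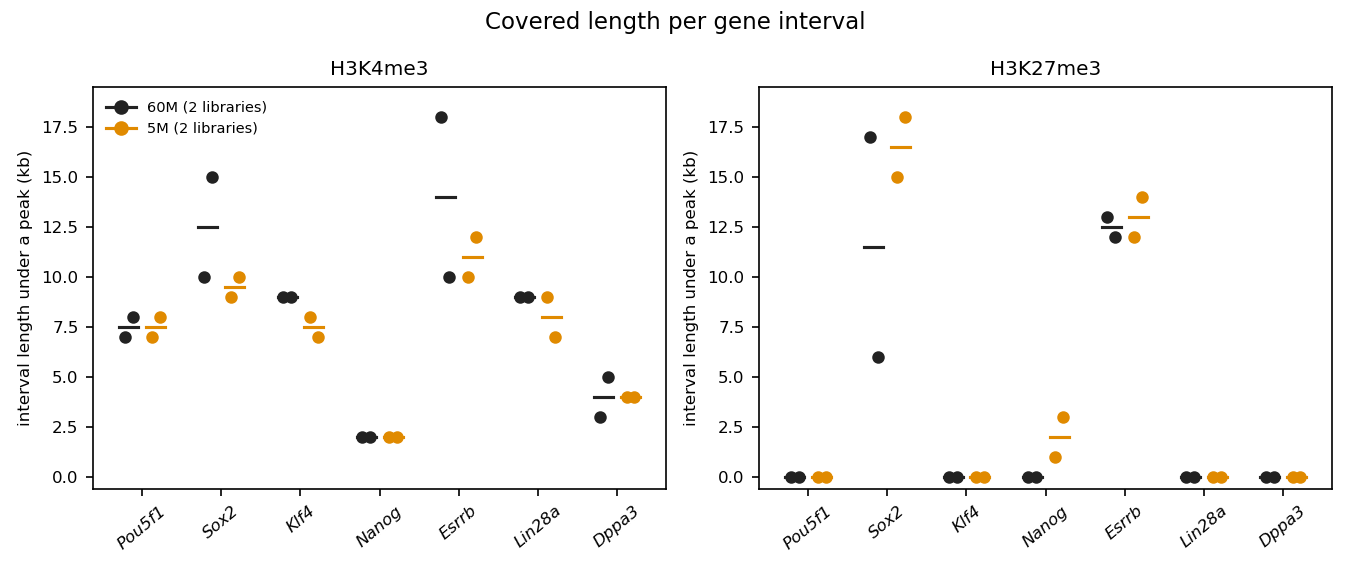
Length of each gene interval under a peak, in kb, for H3K4me3 (left) and H3K27me3 (right). Points are single libraries and short lines the mean of the 2 libraries, black for 60M and orange for 5M. Klf4 separates the ages for H3K4me3 (9 kb against 7 to 8 kb), and the Sox2 interval shows the widest spread for H3K27me3 (6 and 17 kb at 60M).

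Over the 7 intervals together H3K4me3 covered more at 60M and H3K27me3 did not separate the ages. H3K4me3 peaks covered 58 kb in each 60M library, against 49 and 50 kb at 5M, means of 58 ± 0 and 49.5 ± 0.707 kb (SD, n = 2 each) and a difference of 8.5 kb. Over the whole genome they covered 98.3 and 95.5 Mb at 60M and 96.6 and 101 Mb at 5M, so the ages overlapped. How often other sets of intervals of this total length separate the ages was not computed. The gain in the 7 intervals was not shared by them all. Most of it lay in Esrrb in 60M library 1 (18 kb) and in Sox2 in 60M library 2 (15 kb). Over the other 5 intervals, a split chosen after the data were seen, the cover was 30 and 33 kb at 60M, where the 5M libraries had 30 and 28 kb, so the ages met at 30 kb. H3K27me3 covered 30 and 18 kb at 60M, where the 5M libraries had 28 and 35 kb, means of 24 ± 8.49 and 31.5 ± 4.95 kb (SD, n = 2 each), and the ages overlapped. The difference of -7.5 kb became -1.5 kb without 60M library 2.

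Regions with both marks lay in the Sox2 and Esrrb intervals. At 60M, 2 of the 18 H3K4me3 regions listed in both libraries overlapped an H3K27me3 peak in both libraries (11.1%, against 5.53% of all such regions), and at 5M 3 of 18 did (16.7%, against 7.28%). The Esrrb region at 87762000 and the third Sox2 region met this rule at both ages, and the 1 kb Esrrb peak at 87776000 at 5M. For Sox2 at 5M the overlap came only from the merged border, which 60M library 2 extended to 5 kb. At 60M the H3K4me3 peak of library 2 itself overlapped H3K27me3 peaks in both libraries, and that of library 1 did not. Counted by bins that carried both marks in both libraries of each mark, a count chosen after the data were seen, 1 region was left at 60M and 2 at 5M, all of them in Esrrb. The share of all regions under this rule was not computed.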

How the data were processed

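Chromatin of mouse germline stem cells was cross-linked, fragmented (sonication, or MNase treatment and sonication; which is not said per library) and precipitated with antibodies against H3K4me3 or H3K27me3, per the labels' protocols. The submitters' processing notes name CASAVA 1.8.4, Bowtie 1.1.2 and build mm10. What program called peaks was not given in the sources used here. Deposited positions run past the end of 9 of 20 mm10 chromosomes (1331 peaks) and past 1 mm9 chromosome, by at most 687 bp, so positions were read as mm9 (lengths from GenomeInfoDb 1.38.1). No annotation of that build was used and nothing was converted.

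The authors deposited 1 peak list per library, with borders in 1000 bp bins, a maximum immunoprecipitation signal whose scaling is not stated, −log10 p-values with and without the control, and q-values of at most 0.00097, per the file headers. Widths here count both end positions. Depth is unknown.

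Peaks sharing at least 1 bp were merged across the 4 libraries of a mark (Python 3.11.15, numpy 2.4.6, pandas 2.3.3; figures with matplotlib 3.10.9). Covered length was clipped to the interval. Backgrounds are the same counts over all regions, or over 35 kb tiles that held a peak. The region calls were run on simulated lists whose planted regions had the same start in every library. That run cannot show how calls behave where borders shift between libraries. Genes, intervals and lists were chosen with earlier results of these data known. All 7 genes are named. The text names each region of each mark that was tallest in its interval, listed at 1 age alone, or carried both marks, and others were chosen after their values were seen. Alternatives were equal list lengths, a signal minimum, other interval borders, a merging distance, whole peaks, another signal scale and leaving out each library.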

Additional observations from a re-analysis of the deposited data

How the results depend on the processing

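With only 2 libraries per age, each count rests on few regions. No paired analysis was possible because no result comes from a test, and the labels do not say that equal replicate numbers mark a shared culture. Cutting the lists to equal length gave an H3K4me3 gain at 60M of 9.5 kb and 1 60M-only H3K4me3 region (Esrrb, 87774000). A signal minimum at the 25th percentile gave 7 kb, 1 60M-only region (Klf4, 55534000) and 1 5M-only region in place of 3. Regions with both marks then numbered 2 at each age. Merging peaks within 1 kb also left 1 5M-only H3K4me3 region, and it gave 3 regions with both marks at each age. Trimming the intervals by 5 kb left 0 5M-only H3K27me3 regions. For these region counts, genome shares under the changed list and merging settings were not computed. Leaving out intervals and counting by bins were chosen after the data were examined. Without the Sox2 and Esrrb intervals the H3K4me3 gain was 2.5 kb, and by bins 1 region carried both marks at 60M. On the scale of signal over the list median 3 shared regions were higher at 60M, and the mean differences between 60M and 5M turned to -0.0185 for the first Pou5f1 region, -0.39 for the second Sox2 region and -0.668 for the tallest Lin28a region. Leaving out 1 library lets the other of its age decide alone. The counts then ran from 1 to 4 for H3K27me3 5M-only regions and from 0 to 3 for H3K27me3 60M-only regions. They ran from 1 to 3 for H3K4me3 60M-only regions. For regions with both marks they ran from 1 to 2 at 60M and from 2 to 4 at 5M. Genome shares were not computed with a library left out. The H3K4me3 gain ran from 8 to 9 kb, and the H3K27me3 difference from -13.5 to -1.5 kb. The intervals behind the H3K4me3 gain changed. Without H3K4me3 60M library 1 the difference was 5.5 kb in Sox2 and -1 kb in Esrrb. Without H3K4me3 60M library 2 it was 0.5 kb in Sox2 and 7 kb in Esrrb. The single region with both marks at 60M was found without H3K4me3 60M library 2. The causes of these shifts were not tested.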
